A study of Mus musculus with 12 samples.

Results

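The genes described here build the thin filament, the Z-disc and the M-band of the mouse heart, and they are followed in hearts with and without Cited4 in the cardiomyocytes. The set was taken by gene symbol: 7 genes of the thin filament, 3 of titin and the M-band, 11 of the Z-disc, 9 of desmin, chaperone, intercalated disc and signalling proteins, and 4 muscle ubiquitin ligases, kept apart. Of these 34 genes, 33 have a row among the 54186 entries of the table that name a gene, and Myozap, a protein of the intercalated disc, is not analysed here. All 33 were among the 15226 genes with enough counts to test, and the lowest count of any of them in any library was 191.

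RNA was sequenced from 12 whole heart samples in 4 groups of 3: KO labelled exercise, KO labelled sedentary, Flox labelled exercise and Flox labelled sedentary. Flox mice carried CITED4 flox/flox alleles, while KO mice had in addition aMHC-cre, in which a promoter active in cardiomyocytes drives the recombinase. No group here had cre and intact Cited4 alleles, and cre and the loss of Cited4 cannot be told apart. Exercise was voluntary wheel running for 8 weeks, and age, sex and strain are not in the labels used here. The bracketed code in each sample title carries an E beside the word sedentary and an S beside the word exercise, so treatment is given throughout as labelled. If the codes were right and the words wrong, each exercise difference and the interaction would change sign, and the KO over Flox comparisons of the 2 treatments would exchange names. The labels give no animal for a sample, and p-values therefore cover only the spread among the samples sequenced.

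In a sarcomere, thin filaments of actin, tropomyosin and troponin are anchored at the Z-disc, where alpha-actinin cross-links actin and the N-terminus of titin. Titin runs from there to the M-band, where myomesins join it to the thick filament. Desmin filaments tie Z-discs to each other and to the membrane, and ubiquitin ligases of the MuRF family and atrogin-1 mark sarcomere proteins for degradation. Cited4 encodes a co-regulator that binds the acetyltransferases CBP and p300, and the series asks how the heart adapts to exercise without it.

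Libraries held 17465401 to 20467260 counts, of which the 33 genes took 3.77% to 4.65%. Cited4 itself was at 0 to 0.241 CPM (counts scaled to a common library size) in the 6 KO libraries and at 10.1 to 23.9 CPM in the 6 Flox libraries, and no KO library came near any Flox library. Of 15 skeletal muscle markers, 1, the fast myosin Myh4, had no count in any library, while skeletal actin Acta1 had 22.0 to 362 CPM. Most of the 15 were scarce, with a mean log2 CPM of -0.84 to 0.23 by library. Their summed level of 1604 to 2551 CPM was mostly Ckm, at 1552 to 2275 CPM. The 19 atrial markers differed widely within groups: their summed level was 862 to 4201 CPM in KO labelled exercise, 2222 to 23618 CPM in KO labelled sedentary, 738 to 5731 CPM in Flox labelled exercise and 727 to 4993 CPM in Flox labelled sedentary. The atrial light chain Myl7 ran from 0 to 2514 CPM. In bulk RNA, fewer cells of a type and less RNA per cell cannot be told apart.

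Promoters of leading genes were read for the sites that muscle transcription factors are known to use. Upstream windows of 250 bases before the RefSeq start (GRCm38.p6) were at hand for 25 of the 33 genes, some with several starts, 38 windows in all. MCAT, the hexamer CATTCC bound by TEAD factors, was searched on both strands and was in 12 of the 38 windows (31.6%), against 12.6% of all 32841 mouse windows. The CArG box, bound by serum response factor, was in 7 windows (18.4%), against 1.47% of all windows. The MEF2 site was in 6 windows (15.8%), against 2.92% of all. The E-box CACGTG, bound among others by clock factors, was in 1 window (2.63%), against 6.02% of all. The motifs do not overlap in the windows shown, their matches are given in capitals, and a match is a description of letters, not of binding. Pdlim3, Trim63, Ttn and Actn2 were the single-start genes with a motif and the smallest p when KO and Flox labelled sedentary were compared, and Actc1 is shown for its CArG box.
Pdlim3, MCAT on both strands, chr8:45885237-45885486, plus strand: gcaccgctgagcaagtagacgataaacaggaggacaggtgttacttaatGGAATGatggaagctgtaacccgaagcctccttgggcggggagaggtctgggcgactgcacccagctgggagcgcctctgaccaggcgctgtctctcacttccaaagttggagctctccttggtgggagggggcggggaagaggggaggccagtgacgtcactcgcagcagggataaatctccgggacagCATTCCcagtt
Trim63, MCAT, chr4:134314870-134315119, plus strand: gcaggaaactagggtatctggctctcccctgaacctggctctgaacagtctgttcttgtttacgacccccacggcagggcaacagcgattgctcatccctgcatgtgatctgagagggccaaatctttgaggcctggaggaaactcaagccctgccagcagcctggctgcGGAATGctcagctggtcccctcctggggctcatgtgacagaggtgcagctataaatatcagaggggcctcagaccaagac
Ttn, MEF2 site, chr2:76982548-76982797, minus strand: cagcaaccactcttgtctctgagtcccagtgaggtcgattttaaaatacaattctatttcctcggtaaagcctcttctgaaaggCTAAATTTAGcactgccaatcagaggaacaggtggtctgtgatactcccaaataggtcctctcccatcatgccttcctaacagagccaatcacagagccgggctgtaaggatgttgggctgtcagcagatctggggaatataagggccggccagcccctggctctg
Actn2, the E-box CACGTG at both places, chr13:12340733-12340982, minus strand: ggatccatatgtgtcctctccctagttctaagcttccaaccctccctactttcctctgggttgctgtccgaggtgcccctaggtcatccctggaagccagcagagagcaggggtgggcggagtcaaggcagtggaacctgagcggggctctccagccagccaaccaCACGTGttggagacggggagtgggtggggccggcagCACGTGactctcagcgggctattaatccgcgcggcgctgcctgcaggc
Actc1, CArG box, chr2:114052876-114053125, minus strand: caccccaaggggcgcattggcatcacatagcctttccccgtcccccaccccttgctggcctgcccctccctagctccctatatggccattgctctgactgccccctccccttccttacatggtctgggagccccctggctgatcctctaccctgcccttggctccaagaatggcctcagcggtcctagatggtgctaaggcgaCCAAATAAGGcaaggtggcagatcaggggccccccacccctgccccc
In Pdlim3, the MCAT nearest to the RefSeq start ended 6 bases before it, and the other ended 196 bases before it. In Trim63, the MCAT ended 75 bases before the RefSeq start. The GENCODE starts differ for some of these genes. GENCODE starts Pdlim3 at 45885461, so the MCAT nearest to the RefSeq start lies inside the gene as annotated there. The Actn2 window reaches into the GENCODE gene, which ends at 12340760. The whole Actc1 window lies inside the GENCODE gene, 114047282 to 114053548.

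Divided by the length of the longest coding transcript, the thin filament genes stood highest and the Z-disc genes Pdlim3 and Myot lowest. Cardiac troponin T (Tnnt2), which binds the troponin complex to tropomyosin, led with a mean of 5401 CPM per kb over the 12 libraries. Cardiac actin Actc1 followed at 4534, the inhibitory troponin Tnni3 at 4318, the calcium-binding troponin Tnnc1 at 2512 and tropomyosin Tpm1 at 2235 CPM per kb. The capping and nucleating proteins of the thin filament's pointed end were far below their filament: leiomodin Lmod2 had 201 and tropomodulin Tmod1 100 CPM per kb. Telethonin (Tcap), which caps titin at the Z-disc, was the most abundant Z-disc RNA per length at 1422 CPM per kb, and alpha-actinin Actn2 had 433. Titin (Ttn) took 2661 to 3832 CPM but only 29.8 CPM per kb, since its transcript is very long. The muscle ligases ranged between 99 CPM per kb for Trim54 and 15.8 for Fbxo32, and the ALP protein gene Pdlim3 (12.8) and myotilin Myot (12.4 CPM per kb) closed the order. The authors' counting could exchange reads between actin paralogs, so Actc1 is uncertain to the extent of its near-copy Acta1.

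**Figure D1:**
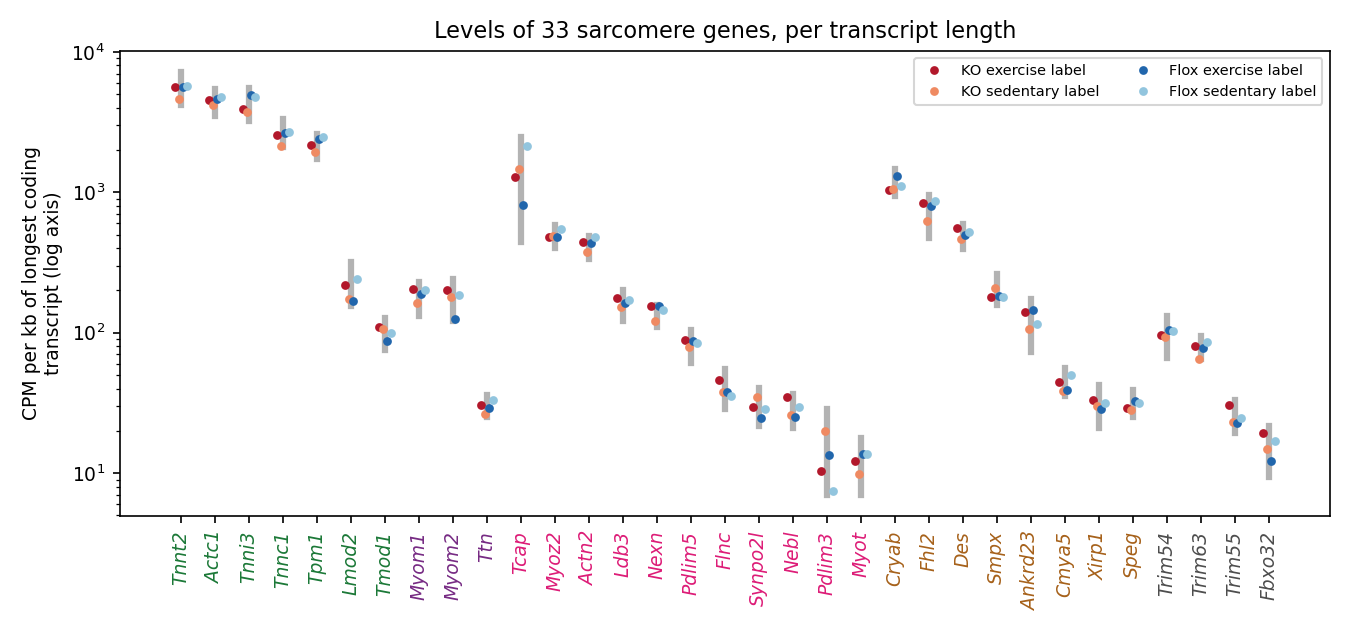
Levels of the 33 genes in CPM per kb of the longest coding transcript (log axis), by region of the sarcomere (label colours), with the mean of 3 libraries for each of the 4 groups as points and the range over 12 libraries as a grey bar. Tnnt2, Actc1 and Tnni3 stand highest, Pdlim3 and Myot lowest, and Tcap has the widest range.

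Between libraries of the same group, the median SD of the 33 genes was 0.22 on the log2 scale. It was 0.16 for the 8636 genes above 10 CPM, a level that each of the 33 also exceeded, and 0.21 for all genes tested. The lowest SD of the 33 was 0.13 and the highest 0.67, that of Tcap. With edgeR's quasi-likelihood test and Benjamini-Hochberg adjustment over 15226 genes, 0 of the 33 passed an adjusted p of 0.05 in any of the 7 comparisons made, while 2 to 9 had an unadjusted p under 0.05. DESeq2 called 2 of them in KO over Flox under the sedentary label, 1 in exercise over sedentary labels in KO, 1 in the interaction and 0 in the other 4 comparisons. Over all genes DESeq2 called 394, 121 and 50 in those first 3 comparisons, in that order, and 10 to 172 in the other 4. With edgeR the background was low as well. Under the sedentary label KO over Flox called 0.125% of all genes, under the exercise label 0.00657%, and averaged over treatment 0.0525%. Exercise over sedentary labels called 0.0197% in KO, 0% in Flox and 0.0263% averaged over genotype, and the interaction, the exercise difference in KO minus that in Flox, called 0%. What follows gives levels, sizes and errors, and none of the differences passed this test unless another tool is named.

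Under the sedentary label, most of the genes were lower in KO than in Flox hearts by a small amount, and Pdlim3 stood apart as higher. Of the 33, 28 had a log2 fold change below 0 and 5 above, with a median of -0.18, against 50% below and 50% above and a median of 0.00 over all genes tested. This split turned on scaling: with library totals in place of TMM factors 18 of 33 were below 0 and the median was -0.01, while the median over all genes moved to 0.18. Adding the mean of the atrial markers to the model likewise left 18 of 33 below 0, with a median of -0.05. At an unadjusted p under 0.05 there were 8 lower (5.41% of all genes were) and 1 higher (8.1%). In 6 genes the 3 KO libraries were all below the 3 Flox libraries (18.2%, against 7.93% of all genes), namely Actn2, Tnnc1, Tnni3, Tnnt2, Tpm1 and Trim63. In 1 gene, Pdlim3, they were all above (3.03%, against 10.4% of all genes).

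Pdlim3 encodes ALP, a PDZ and LIM protein that binds alpha-actinin at the Z-disc; in GRCm38 it lies on chromosome 8, 45885461 to 45919548, plus strand. It had 23.9, 26.0 and 46.2 CPM in KO labelled sedentary, against 11.3, 12.5 and 12.4 CPM in Flox labelled sedentary. Each KO library was above each Flox library, and 1 KO library was well above the other two. The log2 fold change was 1.41 ± 0.26 (SE), a 2.65-fold higher level, with an adjusted p of 0.0715 by edgeR. DESeq2 called it at an adjusted p of 6.88e-05, edgeR with library totals at 0.0412 and edgeR without KO sedentary replicate 1 at 0.0187. Over all alternatives the log2 fold change lay between 0.94 and 1.59 and the adjusted p between 6.88e-05 and 0.726.

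Atrial markers were highest in the group where Pdlim3 was highest. The mean of the 19 markers, in log2 CPM, was 4.84, 6.91 and 7.41 in KO labelled sedentary, against 2.29, 2.07 and 5.21 in Flox labelled sedentary. The KO library with the most Pdlim3 also had the highest marker mean. Within groups, Pdlim3 had a slope of 0.14 ± 0.05 (SE) log2 units per log2 unit of the marker mean, with an unadjusted p of 0.0135 and an adjusted p of 0.356 by edgeR. With the marker mean as a covariate, the KO over Flox difference of Pdlim3 was 0.94. KO sedentary replicate 1, with a marker mean of 4.84, had 23.9 CPM of Pdlim3, against 12.4 CPM in Flox sedentary replicate 3, whose marker mean was 5.21. These libraries differed in other markers as well. The mean log2 CPM of smooth muscle and pericyte markers was 6.83 in KO sedentary replicate 1, against 5.59 in Flox sedentary replicate 3. For adipocyte markers it was 3.21, against -0.54. How much of the Pdlim3 difference goes with atrial tissue or these cells was not tested beyond these values. The relative of Pdlim3, Pdlim5 (ENH), a scaffold at the same place and far more abundant, had 306 to 515 CPM in KO labelled sedentary, against 400 to 461 CPM in Flox labelled sedentary.

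In the 3 cardiac troponins the KO labelled sedentary libraries lay below those of Flox labelled sedentary, by differences that did not pass the test. Tnni3 had 2918, 3291 and 3967 CPM in KO labelled sedentary, against 4731, 4195 and 4019 CPM in Flox labelled sedentary. Tnnt2 had 5053, 5469 and 6117 CPM in KO, against 7622, 6889 and 6127 CPM in Flox. Neither pair of groups overlapped, though the nearest Tnnt2 libraries of the groups nearly touched. The log2 fold changes were -0.35 ± 0.16 for Tnni3 (adjusted p 0.370) and -0.31 ± 0.17 for Tnnt2 (adjusted p 0.440). Tropomyosin Tpm1, the strand that blocks myosin sites on actin at rest, had 5821, 5347 and 5626 CPM in KO, against 7350, 7189 and 6737 CPM in Flox, a log2 fold change of -0.34 ± 0.14 (adjusted p 0.319). Actc1 overlapped, with 5173 to 7988 CPM in KO labelled sedentary and 6522 to 7368 CPM in Flox labelled sedentary. Of the 7 thin filament genes, 6 were below 0, with a median of -0.32, and the exception was Tmod1, which caps the pointed end, at 314 to 346 CPM in KO, against 279 to 341 CPM in Flox.

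Elsewhere in the sarcomere, some genes had differences of the same size and others had smaller ones. Among the smaller, Myom2 had a log2 fold change of -0.04 ± 0.18, Des -0.17 ± 0.14 and Ldb3 -0.17 ± 0.19. All 3 genes of titin and the M-band were below 0 with a median of -0.31, and Ttn had 3084, 2676 and 2661 CPM in KO labelled sedentary, against 3070, 3832 and 3660 CPM in Flox labelled sedentary (log2 fold change -0.33 ± 0.13, adjusted p 0.316). The alpha-actinin of the Z-disc, Actn2, had 1351, 1004 and 1051 CPM in KO, against 1416, 1448 and 1473 CPM in Flox (-0.35 ± 0.14, adjusted p 0.318). In Ttn and Actn2 the low libraries were KO sedentary replicates 2 and 3, which held the most atrial RNA of the 12, while in Myom2, as in Tnni3 and Tnnt2, replicate 1 was the lowest of the KO libraries. Without KO sedentary replicate 1, the median over the 33 genes was -0.34 and 29 were below 0. Fhl2, a LIM protein that binds titin, followed the same order with 1303, 877 and 737 CPM in KO, against 1484, 1308 and 1292 CPM in Flox. Cmya5 (myospryn), which anchors protein kinase A in muscle, had 443 to 472 CPM in KO, against 447 to 666 CPM in Flox.

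Smpx and Synpo2l, a small striated-muscle protein and a Z-disc protein related to synaptopodin 2, were among the 5 genes above 0. Smpx had 171, 221 and 284 CPM in KO labelled sedentary, against 201, 184 and 201 CPM in Flox labelled sedentary. Synpo2l had 159, 119 and 178 CPM in KO, against 115, 132 and 133 CPM in Flox. Both were highest in KO sedentary replicate 3, the library with the highest atrial marker mean, and the groups overlapped in both genes. Within groups, the slope on the atrial marker mean was 0.04 ± 0.04 (SE) for Smpx and -0.01 ± 0.04 for Synpo2l, with adjusted p values of 0.776 and 0.945 by edgeR.

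**Figure D2:**
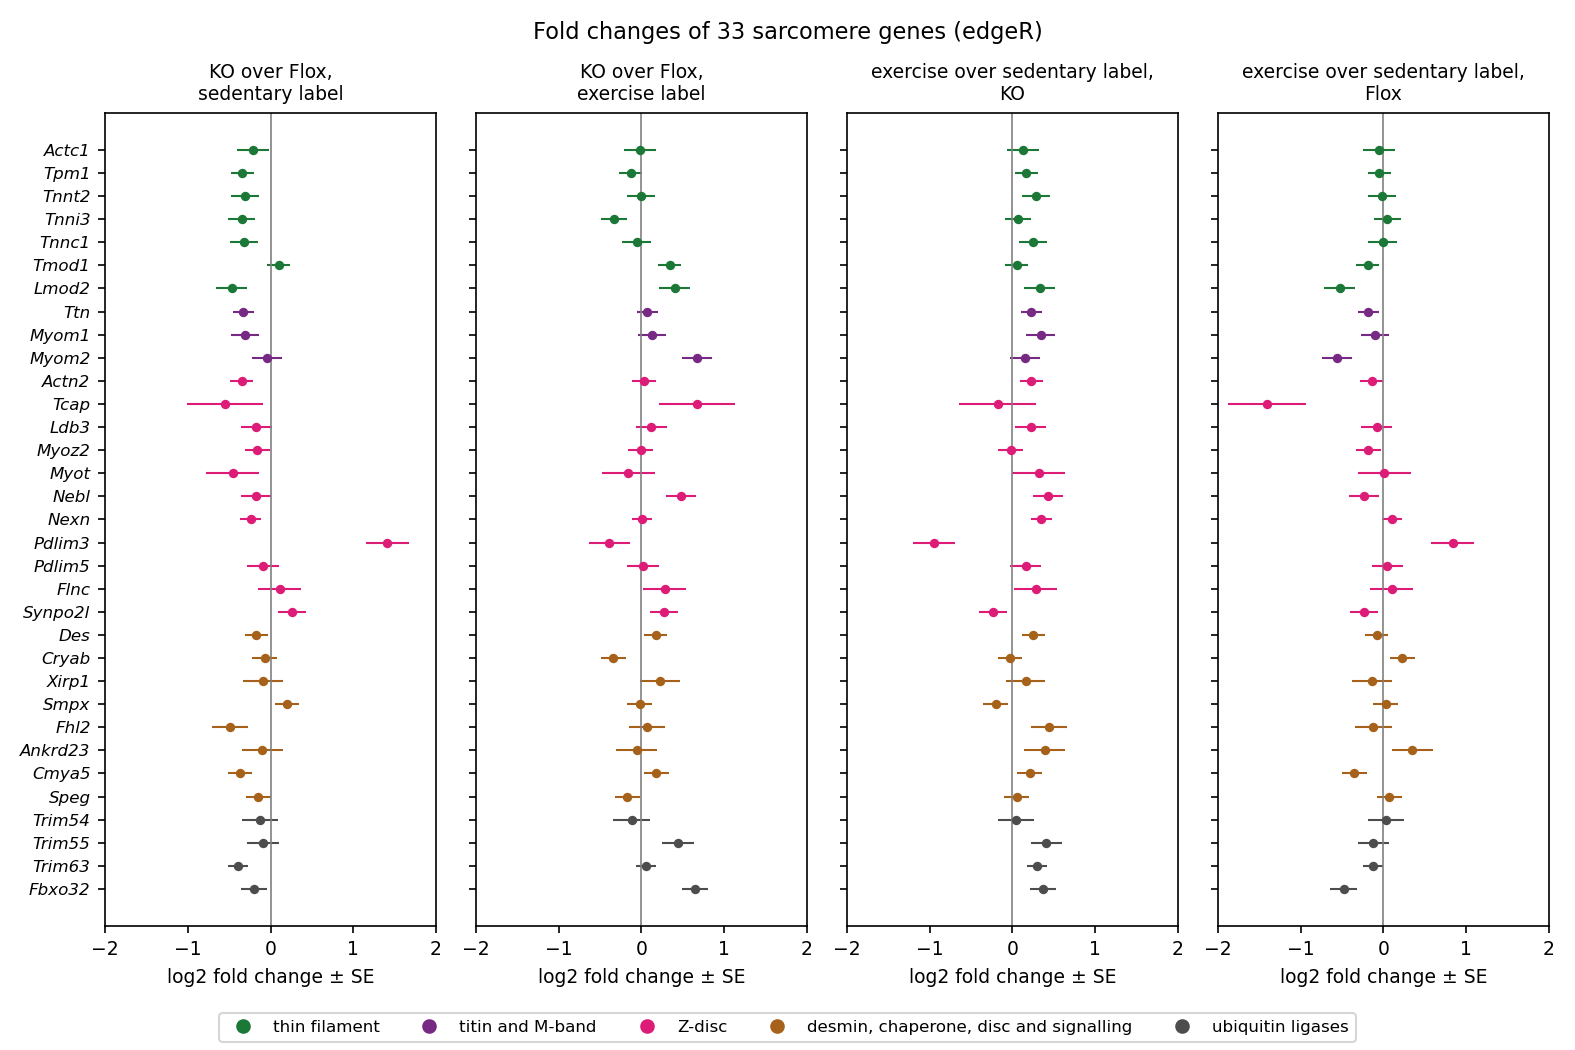
Log2 fold changes ± SE of the 33 genes from edgeR, by region (colours), for KO over Flox under each treatment label and for exercise over sedentary labels in each genotype. In KO over Flox, 28 of 33 points lie below 0 under the sedentary label and 13 of 33 under the exercise label, and Pdlim3 is the point farthest to the right in the first panel at 1.41.

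Under the exercise label, Tnnt2 and Tnnc1 of KO and Flox hearts overlapped, and the genes that stood higher in KO included some of the M-band, the pointed end of the thin filament and the ligases. Of the 33 genes, 20 were above 0 and 13 below, with a median of 0.05, against 48.8% above, 51.2% below and a median of -0.01 over all genes tested, and with library totals 24 were above 0. With Dbp, a clock output gene, as a covariate the split turned, to 15 above and 18 below with a median of -0.06. At an unadjusted p under 0.05 there were 5 higher (3.87% of all genes were) and 1 lower (4.07%). In 6 genes the 3 KO libraries were all above the 3 Flox libraries (18.2%, against 7.61% of all genes): Des, Fbxo32, Lmod2, Myom2, Nebl and Tmod1. In no gene were they all below (0%, against 7.23%).

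Myomesin 2 (Myom2), which cross-links titin and myosin in the M-band of fast fibres and adult heart, had 895, 1224 and 942 CPM in KO labelled exercise, against 678, 626 and 618 CPM in Flox labelled exercise. The groups stood apart, and the log2 fold change was 0.67 ± 0.18, a 1.59-fold higher level (unadjusted p 0.00211, adjusted p 0.601). Atrogin-1 (Fbxo32), the F-box subunit of an SCF ligase that is a classic marker of muscle atrophy, had 132, 152 and 117 CPM in KO, against 81.3, 109 and 65.6 CPM in Flox. Its log2 fold change was 0.65 ± 0.16 (unadjusted p 0.00160, adjusted p 0.601). Nebulette (Nebl), the cardiac nebulin relative that ties actin to the Z-disc, had 287, 263 and 296 CPM in KO, against 194, 240 and 175 CPM in Flox. Lmod2, which lengthens thin filaments, had 416, 491 and 393 CPM in KO, against 311, 305 and 373 CPM in Flox. These 2 had log2 fold changes of 0.48 ± 0.18 and 0.40 ± 0.19, with adjusted p values of 0.601 and 0.640. Tmod1 had 401, 330 and 308 CPM in KO, against 304, 279 and 240 CPM in Flox, with the nearest libraries close to each other, and its exons share 1287 bases with Tstd2 on the other strand, a gene at 14.5 to 20.8 CPM.

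On the other side of 0 stood the small heat shock protein Cryab, a chaperone of desmin and titin, and Tnni3. Cryab had 1136, 1273 and 1047 CPM in KO labelled exercise, against 1631, 1218 and 1515 CPM in Flox labelled exercise, and the groups overlapped (log2 fold change -0.34 ± 0.15, adjusted p 0.619). Tnni3 had 3560, 4162 and 2978 CPM in KO, against 4273, 4109 and 5054 CPM in Flox, with a log2 fold change of -0.33 ± 0.16 (adjusted p 0.656), near that under the sedentary label. Averaged over treatment, Tnni3 had the smallest p of the 33 in KO over Flox, at -0.34 ± 0.11 (unadjusted p 0.0107, adjusted p 0.300), and its range over the alternatives was -0.43 to -0.23. Between KO and Flox over both treatments, 21 of the 33 were below 0 and 12 above (49.6% and 50.4% of all genes), with a median of -0.09, but 14 with library totals and 14 with the atrial covariate. At an unadjusted p under 0.05 there were 4 higher (5.98% of all genes were) and 2 lower (5.64%).

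**Figure D3:**
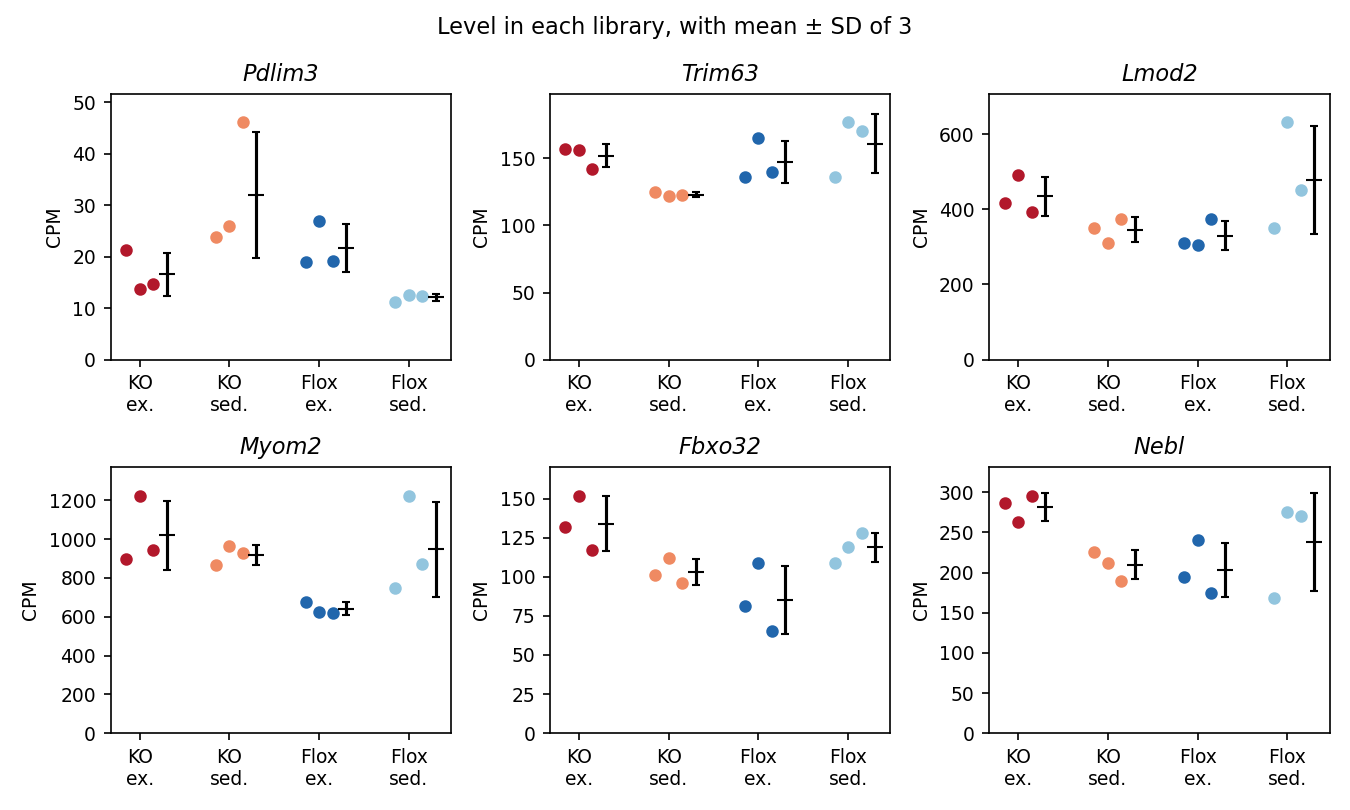
CPM of 6 genes in each of the 12 libraries, with the mean ± SD of the 3 libraries of a group in black. Flox labelled exercise is low for Myom2 (618 to 678 CPM) and Fbxo32 (65.6 to 109 CPM), and Pdlim3 is highest in KO labelled sedentary (23.9 to 46.2 CPM).

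Between treatment labels, KO hearts had most of the genes higher with the exercise label, and Flox hearts had most of them lower. In KO, 27 of 33 were above 0 and 6 below (49.3% and 50.7% of all genes) with a median of 0.22, and with library totals 22 were above, with a median of 0.08 while all genes moved to -0.15. Adding the mean of the atrial markers to the model left 24 above 0 in KO, with a median of 0.10. In Flox, 22 of 33 were below 0 and 11 above (48.6% and 51.4% of all genes) with a median of -0.08, and with Dbp as a covariate 11 were below, with a median of 0.15. All-gene medians were 0.00 in KO and 0.01 in Flox. At an unadjusted p under 0.05 there were 4 higher (4.35% of all genes were) and 1 lower (6.27%) in KO, and 1 higher (3.86%) and 5 lower (3.56%) in Flox. The comparisons share libraries with those between genotypes, so these counts are not independent of those. Averaged over genotype, 23 of 33 were above 0 and 10 below (51.1% and 48.9% of all genes) with a median of 0.06, and with library totals 15 were above. There, 1 had an unadjusted p under 0.05 and was higher (3.58% of all genes were) and 1 was lower (4.87%). Nexn had the smallest p, at 0.23 ± 0.09 (adjusted p 0.535).

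In KO hearts, 6 genes had all exercise libraries above all sedentary ones (18.2%, against 5.82% of all genes): Cmya5, Fbxo32, Lmod2, Nebl, Nexn and Trim63. Nexilin (Nexn), a Z-disc protein that binds actin, had 402, 393 and 402 CPM in KO labelled exercise, against 372, 283 and 282 CPM in KO labelled sedentary (log2 fold change 0.35 ± 0.13, adjusted p 0.387). Only 1 gene was the other way (3.03%, against 7.31%): Pdlim3, with 21.4, 13.7 and 14.7 CPM in KO labelled exercise and the sedentary values given above, at -0.95 ± 0.25 (adjusted p 0.282, and 0.0419 with DESeq2). Leaving out KO sedentary replicate 1 brought Nexn (0.51, adjusted p 0.0299), Pdlim3 (-1.11, adjusted p 0.0442) and Trim55 (0.69, adjusted p 0.0461) past the threshold, when 566 genes in all were called. In that fit the 2 remaining sedentary KO libraries were those richest in atrial RNA.

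In Flox hearts, Actn2, Fbxo32, Myom2 and Tcap had all exercise libraries below all sedentary ones (12.1%, against 6.57% of all genes), and Nexn and Pdlim3 had them above (6.06%, against 7.50%). In Actn2, Fbxo32 and Nexn the nearest exercise and sedentary libraries nearly touched, at 1413 and 1416, 109 and 109, and 392 and 391 CPM. The log2 fold change of Nexn was 0.10 ± 0.12 (adjusted p 0.873 by edgeR). Myom2 had 678, 626 and 618 CPM in Flox labelled exercise, against 749, 1221 and 872 CPM in Flox labelled sedentary, with a log2 fold change of -0.56 ± 0.18 (adjusted p 0.523). Pdlim3 had 18.9, 27.0 and 19.1 CPM in Flox labelled exercise, against 11.3, 12.5 and 12.4 CPM in Flox labelled sedentary, at 0.84 ± 0.26 (adjusted p 0.523). Here the atrial marker mean was 2.12, 5.80 and 2.55 in Flox labelled exercise and 2.29, 2.07 and 5.21 in Flox labelled sedentary. In the same comparison 10 of 10 fibroblast markers were above 0, with a median of 0.51, and their summed level was 1222, 2315 and 1547 CPM in Flox labelled exercise, against 1020, 1034 and 1081 CPM in Flox labelled sedentary. Of 10 smooth muscle and pericyte markers 5 were above 0, with a median of 0.03. The part of these cells in the Pdlim3 difference was not tested. Lmod2 had 311, 305 and 373 CPM in Flox labelled exercise, against 350, 632 and 451 CPM in Flox labelled sedentary, and the groups overlapped (-0.53 ± 0.19, adjusted p 0.562).

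The interaction asks whether the exercise difference itself differed by genotype, and 29 of the 33 had it above 0 and 4 below (47.9% and 52.1% of all genes), with a median of 0.29, against -0.02 over all genes tested. With library totals 24 were above 0 (median 0.15), with the atrial covariate 24 (median 0.17), and with the Dbp covariate 20 (median 0.17). At an unadjusted p under 0.05 there were 6 above (4.37% of all genes were) and 1 below (5.52%). The smallest p was that of Pdlim3, at -1.79 ± 0.36 (unadjusted p 0.000357, adjusted p 0.363 by edgeR and 0.00217 by DESeq2). Then came Fbxo32 at 0.85 ± 0.23 (adjusted p 0.393), Lmod2 at 0.86 ± 0.27 (adjusted p 0.406), Myom2 at 0.72 ± 0.25 (adjusted p 0.442) and Nebl at 0.66 ± 0.25 (adjusted p 0.465). All 7 thin filament genes, all 3 of titin and the M-band and all 4 ligases were above 0, as were 10 of the 11 Z-disc genes. Of the desmin, chaperone, disc and signalling genes, Cryab (-0.26 ± 0.21), Smpx (-0.23 ± 0.21) and Speg (-0.02 ± 0.21) were below 0 and the others above. Among the genes above 0, Tnni3 (0.02 ± 0.23), Trim54 (0.01 ± 0.31) and Synpo2l (0.01 ± 0.24) were scarcely so.

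Ratios within a library do not depend on its scaling. Myom2 and Myom1 encode alternative myomesins, and the ratio of Myom2 to Myom1 was 0.711 to 1.01 in KO labelled exercise, 0.760 to 1.25 in KO labelled sedentary, 0.578 to 0.650 in Flox labelled exercise and 0.710 to 1.05 in Flox labelled sedentary. The 3 Flox exercise libraries were below all 9 others. Exons of Myom1 share a stretch of 207 bases with Myl12a on the other strand, so its count is uncertain to that extent. The ratio of Tnni3 to Tnnc1, subunits of the same complex, was 1.87 to 2.06 in KO labelled exercise, against 2.09 to 2.66 in Flox labelled exercise, and 1.91 to 2.47 in KO labelled sedentary, against 2.16 to 2.35 in Flox labelled sedentary. The ratio of Tnni3 to Tnnt2, of the same complex, overlapped between genotypes under both labels. It was 0.482 to 0.594 in KO labelled exercise, against 0.577 to 0.744 in Flox labelled exercise. Under the sedentary label it was 0.578 to 0.648 in KO, against 0.609 to 0.656 in Flox. The ratio of cardiac to skeletal actin, Actc1 to Acta1, ran from 14.3 to 280 over the 12 libraries, which followed Acta1 (22.0 to 362 CPM) far more than Actc1 (5173 to 7988 CPM).

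The muscle ubiquitin ligases differed in which group was lowest. MuRF1 (Trim63), which binds titin at the M-band and ubiquitinates myosin, had 157, 156 and 142 CPM in KO labelled exercise, 125, 122 and 123 CPM in KO labelled sedentary, 136, 165 and 140 CPM in Flox labelled exercise and 136, 177 and 170 CPM in Flox labelled sedentary. KO labelled sedentary was lowest and its 3 libraries were nearly equal. KO over Flox under the sedentary label was -0.39 ± 0.12 (adjusted p 0.193 by edgeR and 0.0487 by DESeq2). Fbxo32, by contrast, was lowest in Flox labelled exercise (65.6 to 109 CPM), with 95.8 to 112 CPM in KO labelled sedentary and 109, 119 and 128 CPM in Flox labelled sedentary. The ratio of Fbxo32 to Trim63 was 0.822 to 0.973 in KO labelled exercise, 0.781 to 0.919 in KO labelled sedentary, 0.468 to 0.660 in Flox labelled exercise and 0.671 to 0.801 in Flox labelled sedentary. Flox labelled exercise was below the other 9 libraries in this ratio. MuRF2 (Trim55) and MuRF3 (Trim54), which stabilise microtubules and the sarcomere, overlapped in each comparison of groups: Trim55 ran from 49.9 to 86.8 CPM and Trim54 from 95.3 to 190 CPM.

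Telethonin varied more than any of the other 32 genes. Tcap (chromosome 11, 98383811 to 98384953, plus strand, GRCm38) had 1297, 1938 and 416 CPM in KO labelled exercise, 1064, 1375 and 1704 CPM in KO labelled sedentary, 1097, 549 and 651 CPM in Flox labelled exercise and 2357, 2117 and 1612 CPM in Flox labelled sedentary. The range was 5.66-fold, and both low and high libraries were found among KO labelled exercise. Exercise over sedentary labels in Flox was -1.41 ± 0.47, a level of 0.377 times (adjusted p 0.562), with groups apart, and KO over Flox under the sedentary label was -0.55 with groups that overlapped.

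Tcap is known as a clock-controlled gene of the mouse heart, and libraries with little Tcap had little Dbp, a transcription factor that is an output of the circadian clock. Dbp had 76.9, 187 and 23.7 CPM in KO labelled exercise, 103, 180 and 242 CPM in KO labelled sedentary, 51.0, 7.57 and 24.0 CPM in Flox labelled exercise and 200, 259 and 184 CPM in Flox labelled sedentary. The core clock gene Arntl ran against it, with 18.8 to 22.7 CPM in Flox labelled exercise and 0.840 to 5.75 CPM in Flox labelled sedentary. Within groups, Tcap had a slope of 0.55 ± 0.09 (SE) log2 units per log2 unit of Dbp, with an adjusted p of 0.0417 by edgeR over 15225 genes. That slope passed in 24 genes (0.158%); Tcap had the fifteenth smallest p, and Bhlhe41 and Nr1d2, both clock genes, were the other two with a slope above 0. Of the 21 with a slope below 0, several are matrix or macrophage genes, among them Lox, Col1a1, Col3a1, Postn and Cd68. The relation was chosen after values were seen, and it kept its call in only 4 of 12 fits that left out a library, with slopes of 0.39 to 0.71 and a highest adjusted p of 0.474, without KO exercise replicate 3. With library totals the adjusted p was 0.0618. With Dbp as a covariate, the exercise difference of Tcap in Flox was 0.38 instead of -1.41. KO exercise replicate 3 and Flox exercise replicate 2, the libraries with the least Tcap, also had the highest summed fibroblast levels, 2374 and 2315 CPM. Their summed macrophage levels, 475 and 553 CPM, were the highest too. In the other libraries these levels reached 1798 and 462 CPM. How far Tcap goes with these cells was not tested. The time of day of collection is not in the labels used here, and treatment label and Dbp level cannot be told apart in Flox, since no Dbp value of Flox labelled exercise reached those of Flox labelled sedentary.

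**Figure D4:**
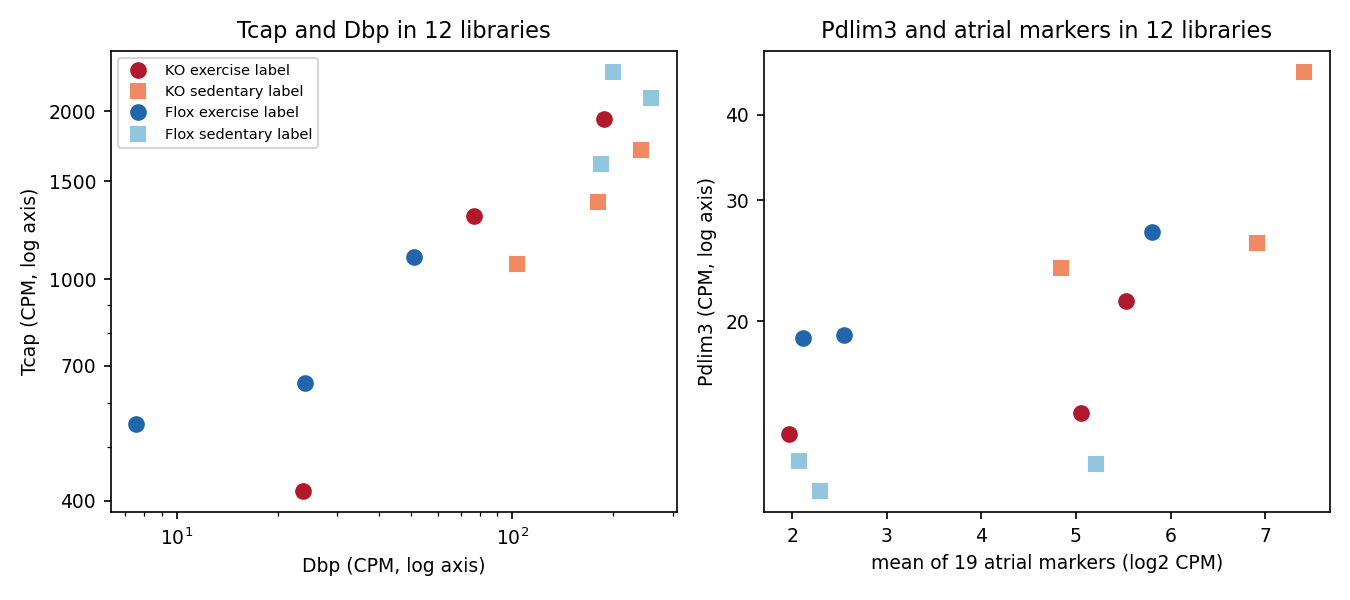
Left, Tcap against Dbp in CPM (both log axes), and right, Pdlim3 in CPM (log axis) against the mean of 19 atrial markers in log2 CPM, 1 point per library, coloured by group. The 4 libraries with the least Dbp, 7.57 to 51.0 CPM, have Tcap between 416 and 1097 CPM, and the library with the highest marker mean, 7.41, has the highest Pdlim3, 46.2 CPM.

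None of the other 32 genes had a called slope on Dbp, and 0 of the 33 had one on the atrial marker mean, which was called in 0.697% of genes. At an unadjusted p under 0.05 there were 3 for Dbp (8.53% of all genes) and 3 for the atrial mean (9.84%). Myoz2 (calsarcin-1), which binds calcineurin at the Z-disc, had a slope on Dbp of 0.14 ± 0.05 and Trim54 one of 0.20 ± 0.07, both with an adjusted p of 0.424. On the atrial mean, Trim54 had -0.11 ± 0.04 and Fhl2 -0.10 ± 0.04, with adjusted p values of 0.457 and 0.5, opposite in sign to Pdlim3.

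Among the other linkers and scaffolds, desmin (Des), the intermediate filament of muscle, had 1585 to 1794 CPM in KO labelled exercise, against 1362 to 1575 CPM in Flox labelled exercise, and 1197 to 1689 CPM in KO labelled sedentary, against 1540 to 1631 CPM in Flox labelled sedentary. Ldb3 (Cypher), a PDZ and LIM protein of the Z-disc, ran from 627 to 1032 CPM, and Myoz2 from 471 to 688 CPM. Filamin C (Flnc), an actin cross-linker, ran from 257 to 502 CPM and Xirp1, a repair protein of the intercalated disc, from 122 to 248 CPM, with both at their lowest and highest within KO labelled sedentary. The kinase Speg ran from 272 to 422 CPM, the titin-binding ankyrin protein Ankrd23 from 165 to 394 CPM and myotilin (Myot) from 15.4 to 39.6 CPM. Myot had -0.46 ± 0.32 in KO over Flox under the sedentary label (adjusted p 0.571), and Ankrd23 had 0.39 ± 0.25 in KO exercise over sedentary (adjusted p 0.573). In each of these genes but desmin the groups of every comparison overlapped, and the exons of Ankrd23 share 1449 bases with Gm42417 on the same strand.

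The neighbours of the set were read from lists chosen for their roles, each by its count above 0 in KO over Flox under the sedentary label, in KO exercise over sedentary and in the interaction, where 50%, 49.3% and 47.9% of all genes were above 0. Of 7 thick filament genes, 1, 7 and 7 were above 0 in these comparisons, with medians of -0.29, 0.51 and 0.60, and the ventricular light chain Myl2 led in the first at -0.83 ± 0.19 (adjusted p 0.0994). Of 18 tested other isoforms of the same proteins, among them smooth muscle and non-muscle ones, 14, 2 and 5 were above 0, with medians of 0.47, -0.40 and -0.30. Among the 18 were slow troponin I, Tnni1, at 1.53 ± 0.51 (adjusted p 0.228) and tropomyosin Tpm2 at 1.28 ± 0.32 (adjusted p 0.151) in KO over Flox under the sedentary label. The list of isoforms also held Acta2 and Lmod1, used below as smooth muscle and pericyte markers, and Acta1, a skeletal muscle marker. How much of its values came from other cell types was not tested. Tnni1 was scarce, with 0.434, 1.48 and 1.83 CPM in KO labelled sedentary, against 0.354, 0.630 and 0.303 CPM in Flox labelled sedentary. Of 26 other Z-disc, costamere and M-band genes, 8, 21 and 20 were above 0, with medians of -0.12, 0.15 and 0.27, and Ankrd1, a stress-responsive partner of titin, had 0.92 ± 0.19 in the first (adjusted p 0.0826). Of 22 ubiquitin and autophagy genes, 5, 16 and 19 were above 0, with medians of -0.08, 0.12 and 0.13. Of 8 sarcomere chaperones and assembly factors, 3, 7 and 4 were, with medians of -0.05, 0.22 and -0.04. Of 14 transcription regulators of the sarcomere, 7, 12 and 8 were, with medians of -0.01, 0.09 and 0.08. None of the genes of these 6 lists passed edgeR in any of the 7 comparisons.

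Markers of other cell types differed between the same groups. In KO over Flox under the sedentary label, 17 of 18 tested atrial markers were above 0 (median 1.96), as were 10 of 10 fibroblast markers (0.75), 8 of 8 macrophage markers (0.49) and 6 of 7 adipocyte markers (4.65). Of the adipocyte markers 3 were called by edgeR, against 0.125% of all genes. Of the 6 ventricular markers, 5 were below 0 (median -0.47). The summed fibroblast level was 1539 to 1798 CPM in KO labelled sedentary, against 1020 to 1081 CPM in Flox labelled sedentary, and the summed level of the ventricular list was 28790 to 34934 CPM in KO, against 39804 to 41834 CPM in Flox. Most of that ventricular sum was the myosin Myh6, at 22658 to 26471 CPM in KO and 28997 to 29613 CPM in Flox. Myh6, Myl2 and Myl3 were also in the thick filament list, so the ventricular and thick filament values partly come from the same genes. Under the exercise label 10 of 10 endothelial markers were below 0 in KO over Flox (median -0.36), and under the sedentary label 5 of 10 smooth muscle and pericyte markers (median 0.38) and 5 of 7 tested skeletal muscle markers (1.16) were above 0. In Flox exercise over sedentary, 10 of 10 fibroblast (median 0.51) and 8 of 8 macrophage markers (0.62) were above 0. In KO exercise over sedentary, 17 of 18 atrial (-1.82), 8 of 10 smooth muscle and pericyte (-0.51), 9 of 10 endothelial (-0.26), 7 of 10 fibroblast (-0.24) and 6 of 7 adipocyte markers (-3.07, 1 of them called, against 0.0197% of all genes) were below 0, while 5 of 6 ventricular markers were above 0 (0.42). In the interaction, 18 of 18 atrial (-1.71), 10 of 10 fibroblast (-0.81), 10 of 10 endothelial (-0.31), 8 of 8 macrophage (-0.72) and 7 of 10 smooth muscle and pericyte markers (-0.51) were below 0. Beyond the atrial covariate and slopes given, the part of these cell types in the values of the sarcomere genes was not tested.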

How the data were processed

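RNA was sequenced from 12 whole-heart samples of mice; the labels' protocols name a RiboZero kit for depleting ribosomal RNA and an NEB library kit. The authors deposited estimated counts per gene symbol, unscaled. FastQC and Salmon appear in the submitters' processing notes without versions, as do builds mm9 and mm10 without roles. Annotation, strand setting and the summing of transcripts into genes: not given in the sources used here. Exons of 11 genes of the set overlap another gene, and their counts are uncertain to that extent. Of 55874 entries, 1688 named no gene (3.87e-05% to 0.186% of counts) and were left out. The 13 mitochondrial genes took 21.0% to 27.2% of counts. Chi-square per degree of freedom between replicates was 18.5 to 91.7.

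Counts were rounded (21.6% to 26.4% of values were not whole). The fit used R 4.3.3 and edgeR 4.0.16, with filterByExpr on groups, TMM factors, a group-means model of 12 libraries, robust glmQLFit, and Benjamini-Hochberg adjustment at 0.05 over 15226 genes. The F statistic gave the standard errors. The test was checked on simulated data. Levels are CPM on TMM-scaled sizes; per-kb values and gene positions use GENCODE M21, promoters RefSeq. Slopes on the atrial marker mean and on Dbp were fitted with group terms, leaving out the covariate's own genes; both slopes and the Dbp covariate were chosen after seeing the data. Alternatives were DESeq2 1.42.0, its size factors in edgeR, library totals, no low-count filter, a replicate block, an atrial covariate and each library left out. Members and lists were chosen with earlier results of these data known. Every member is described; in each comparison the 6 with the smallest p were recomputed under every alternative, and at most 3 genes are named per other list.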

Additional observations from a re-analysis of the deposited data

Results flagged for a closer look

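Pdlim3 had opposite exercise differences by genotype: the log2 fold change of exercise over sedentary labels was -0.95 in KO, where all 3 exercise libraries were below all 3 sedentary ones, and 0.84 in Flox, where all 3 were above. Fbxo32 was the other way round, at 0.37 in KO, with the exercise libraries all above, and -0.48 in Flox, with them all below. Its nearest Flox exercise and Flox sedentary libraries were both at 109 CPM after rounding. The difference itself was tested as the interaction and did not pass with edgeR (adjusted p 0.363 for Pdlim3 and 0.393 for Fbxo32), while DESeq2 called that of Pdlim3 (0.00217) and gave 0.0847 for Fbxo32.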

How the results depend on the processing

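Of the 33 genes, edgeR called 0 in each of the 7 comparisons, and the Dbp slope 1. DESeq2 called 2 in KO over Flox under the sedentary label (Pdlim3 and Trim63), 1 in exercise over sedentary in KO and 1 in the interaction (both Pdlim3), and library totals called 1 in the first and 0 for the Dbp slope. Without one library, KO over Flox under the sedentary label called 0 to 1, exercise over sedentary in KO 0 to 3 and the Dbp slope 0 to 1; both higher values between groups came without KO sedentary replicate 1. With Dbp as a covariate, signs turned for Tcap in Flox (0.38, against -1.41 without it) and, averaged over genotype, for Tcap (0.34), Synpo2l (0.04) and Myom2 (0.02); the cause was not tested. Over 43 results of single genes and 813 alternatives, 791 kept direction and call, 9 gained a call, 9 lost one and 4 turned.

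Over all genes, KO over Flox under the sedentary label called 19, but 394 with DESeq2, 100 with library totals, 120 with no filter, 37 with the replicate block, 3 with the atrial covariate and 2 to 479 without one library (479 without KO sedentary replicate 1, 2 without Flox sedentary replicate 2). Under the exercise label it called 1, but 10 with DESeq2, 4 with no filter, 2 with the Dbp covariate and 1 to 2 without one library (2 without Flox exercise replicate 1 or Flox sedentary replicate 1 or 2). Exercise over sedentary in Flox called 0, but 49 with DESeq2, 2 with no filter and 0 to 2 without one library (2 without KO exercise replicate 3). In KO it called 3, but 121 with DESeq2, 1 with its size factors, 36 with library totals, 30 with no filter, 0 with either covariate and 0 to 566 without one library (566 without KO sedentary replicate 1). The interaction called 0, but 50 with DESeq2, 1 with no filter and 0 to 2 without one library (2 without Flox exercise replicate 1). KO over Flox averaged over treatment called 8, but 172 with DESeq2, 49 with no filter, 19 with the replicate block, 2 with the atrial and 31 with the Dbp covariate, and 4 to 34 without one library (4 without Flox sedentary replicate 2, 34 without KO exercise replicate 2 or KO sedentary replicate 1). Exercise over sedentary averaged over genotype called 4, but 51 with DESeq2, 2 with its size factors, 10 with no filter, 2 with the replicate block, 1 with the atrial and 0 with the Dbp covariate, and 0 to 12 without one library (12 without KO sedentary replicate 1). The atrial slope called 106, and 46 to 142 without one library (46 without Flox exercise replicate 2); the Dbp slope called 24, 71 with no filter, and 1 to 169 without one library (1 without KO exercise replicate 3, 169 without KO sedentary replicate 1). The causes were not tested.

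Replicate numbers did not pair the libraries: deviations of same-numbered libraries correlated at -0.319 to 0.306 (median 0.002 over 18 pairs), against -0.393 to 0.279 for other numbers (median -0.004 over 36). Counts of the 33 genes were 191 or more in every library.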
